A study of Mus musculus with 18 samples.

Results

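Gata1, Gata2 and Zfpm1 (the gene of FOG1) were followed as G1E-ER4 cells matured in estradiol. These 3 genes are named for the exchange of GATA2 for GATA1, with its partner FOG1, in the red cell lineage. They were picked by symbol from the 18194 genes that have a probe set annotated to that gene alone. Earlier results of these data were known when they were picked. Each was read from the probe set with the highest mean over all arrays, and the other probe sets of Gata2 and Zfpm1 served as a check. All 3 passed the filter on low values, which left 12720 genes for testing.

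The series holds 18 Affymetrix arrays of total RNA from mouse G1E-ER4 cells, in groups of 3 taken before 20 nM estradiol (0 h) and after 3, 7, 14, 21 and 30 h in it. G1E-ER4 is an erythroid line derived from mouse embryonic stem cells in which Gata1 was disrupted, and it carries GATA1 fused to the hormone-binding part of the estrogen receptor. Every group shares this genotype, the 0 h group included, and the groups differ by hours in estradiol. Estradiol lets the fused GATA1 act, so the hormone, the activity of GATA1 and the hours in culture cannot be told apart, and no time-matched arrays without hormone were analysed here. The line is a single clone grown in culture, whose promoter for the fused protein was not given in the sources used here. Replicates are biological by their labels, but separate cultures are not stated; the p-values measure only the spread between these samples, which may be technical.

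GATA1 and GATA2 are zinc finger proteins that bind the same short DNA sequence, GATA. GATA2 acts in stem and progenitor cells and in mast cells; GATA1 is needed for red cells, megakaryocytes, mast cells and eosinophils, and during red cell maturation it replaces GATA2 at many sites, among them sites near the Gata2 gene itself. FOG1 is recruited through protein contacts: it joins the amino-terminal zinc finger of GATA1, and it brings in the NuRD chromatin-remodelling complex.

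The DNA just before the annotated start of each gene is shown because the proteins studied act on such sequence and because the genes moved in opposite directions. RefSeq (GRCm38.p6) gives 1 start for Gata1 and Zfpm1 and 2 for Gata2, which yields 4 windows of 250 bases. They lie at chrX:7967911-7968160 (minus strand) for Gata1, chr6:88193641-88193890 and chr6:88198414-88198663 (plus strand) for Gata2, and chr8:122281891-122282140 (plus strand) for Zfpm1. Each is written 5′ to 3′ in the direction of transcription and ends at the base before the start, with any GATA core, read on either strand, in capitals.
Gata1: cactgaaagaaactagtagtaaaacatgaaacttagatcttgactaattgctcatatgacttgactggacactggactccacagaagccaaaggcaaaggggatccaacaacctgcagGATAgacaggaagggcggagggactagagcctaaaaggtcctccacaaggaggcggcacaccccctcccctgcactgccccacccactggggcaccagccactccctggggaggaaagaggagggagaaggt
Gata2, upstream start: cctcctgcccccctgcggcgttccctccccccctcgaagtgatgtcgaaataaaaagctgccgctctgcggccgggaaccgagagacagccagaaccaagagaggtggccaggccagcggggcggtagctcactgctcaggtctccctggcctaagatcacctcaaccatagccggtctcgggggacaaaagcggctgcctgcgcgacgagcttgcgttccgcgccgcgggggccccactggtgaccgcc
Gata2, downstream start: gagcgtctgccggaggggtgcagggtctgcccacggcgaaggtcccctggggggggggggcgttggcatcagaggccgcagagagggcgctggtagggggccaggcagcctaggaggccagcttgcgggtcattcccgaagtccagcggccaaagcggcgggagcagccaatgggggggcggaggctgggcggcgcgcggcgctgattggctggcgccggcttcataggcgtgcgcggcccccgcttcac
Zfpm1: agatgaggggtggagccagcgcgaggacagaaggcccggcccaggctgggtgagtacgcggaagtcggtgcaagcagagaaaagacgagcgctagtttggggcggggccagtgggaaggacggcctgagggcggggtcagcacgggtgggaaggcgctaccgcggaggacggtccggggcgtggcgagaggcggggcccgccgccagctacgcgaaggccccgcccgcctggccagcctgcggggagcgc

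Gata1 was the gene with a GATA core in its window, 132 bases before the start, and the other 3 windows held 0. Extended forms of the GATA site carry a base on each side of that core: AGATAA is the form named most often, AGATAG differs from it at the end, TGATAA differs at the beginning and TGATAG at both. On either strand, 0 of the 4 windows held any of these forms. For comparison, 53.6% of 32851 RefSeq windows of the same length held a GATA core and 26.5% held at least 1 of the extended forms. CACCC, the core of the site read by KLF factors, occurred 2 times before Gata1, 0 and 1 times before the Gata2 starts and 3 times before Zfpm1, and 52% of all windows held it. The Gata2 and Zfpm1 windows were rich in G and C, at 67.2%, 74.0% and 73.2%, with 22, 24 and 28 CG pairs. The Gata1 window had 54.0% G and C and 2 CG pairs, near the median of 52.4% over all windows. These are descriptions of letters in a window and say nothing of binding in these cells.

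Values are log2 expression as the authors deposited them, and a difference of 1 is a 2-fold change. Array medians lay between 4.04 and 4.09, arrays of the same time correlated at 0.995 to 0.998 over probe sets, and 0 pairs of arrays held identical values. Some genes of the erythroid marker list were bright from the start, and others were not. At 0 h Klf1, an erythroid transcription factor, averaged 11.31, Tfrc, the transferrin receptor, 12.46 and Epor 10.12. Slc4a1 averaged 6.34 and Epb42 3.42 at that time, and Hba-a1 was below the filter on low values. Alas2, which starts heme synthesis in red cells, went from 5.85 at 0 h to 12.34 at 30 h. The gap between the 3′ and 5′ control probe sets of Actb, a measure of RNA integrity, was 1.84 to 1.98 at 0 h, 1.89 to 2.36 at 21 h and 2.08 to 2.31 at 30 h. That of Gapdh was 1.07 to 1.20, 1.24 to 1.78 and 1.34 to 1.62 respectively. Their part in the late changes below was not tested.

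All 3 genes moved within 3 h, in 2 directions. At 3 h Gata2 and Gata1 were lower than at 0 h and Zfpm1 was higher; limma called 3 of 3 at an adjusted p under 0.05 (Benjamini-Hochberg), against 25.9% of all genes tested. Gata2 then went on falling to the last time, Zfpm1 went on rising to 21 h, and Gata1 came back by 7 h and rose only after 14 h. Against 0 h, 2 of 3 were called at 7 h (31.6% of all genes), 2 at 14 h (44.9%), 3 at 21 h (59.9%) and 3 at 30 h (69.5%). At the late times a call by itself sets a gene apart from few others, so the sizes below carry more than the calls.

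**Figure D1:**
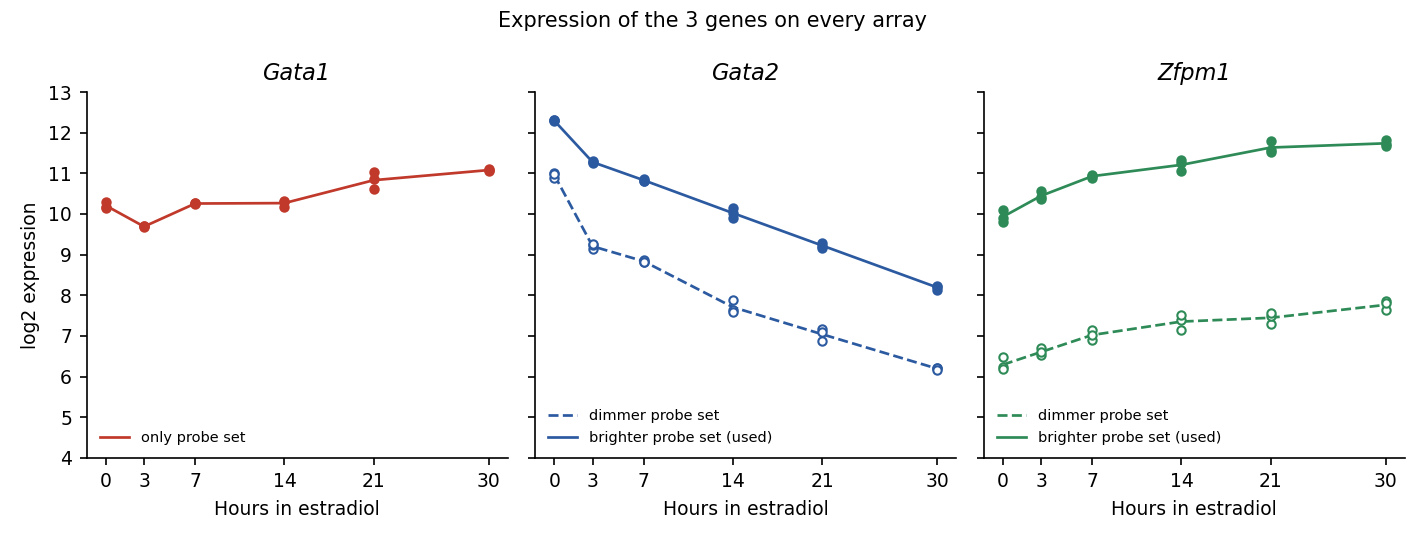
Deposited log2 expression (vertical axes) of Gata1, Gata2 and Zfpm1 by hours in estradiol (horizontal axes), with a point for each of 3 arrays per time and a line through the means; dashed lines with open points are the dimmer probe sets of Gata2 and Zfpm1. Gata2 goes from 12.29 to 8.19, Zfpm1 from 9.93 to 11.74, and Gata1 dips to 9.69 at 3 h before reaching 11.08 at 30 h.

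Gata2, the progenitor GATA factor, fell at every step. Its 3 arrays read 12.30, 12.30 and 12.28 at 0 h and 11.30, 11.26 and 11.27 at 3 h. They read 10.87, 10.82 and 10.80 at 7 h, then 10.02, 9.89 and 10.15 at 14 h. At 21 h the values were 9.21, 9.29 and 9.16, and at 30 h 8.23, 8.14 and 8.21. Each time lay wholly below the one before, and no arrays of different times overlapped. The change from 0 h was -1.02 at 3 h (SE 0.062, limma adjusted p = 1.52e-08), then -1.46 by 7 h, -2.27 by 14 h, -3.07 by 21 h and finally -4.10 by 30 h, the last a 17.2-fold lower level (adjusted p = 3.40e-17). All 15 pairs of times differed by the same test; for pairs that leave out 0 h and are not neighbours, the share of all genes called was 38.4% (14 against 3 h), 54.7% (21 against 3 h), 64% (30 against 3 h), 48.6% (21 against 7 h), 61.4% (30 against 7 h) and 56.9% (30 against 14 h). Among the 12720 genes, 104 had a lower change than Gata2 at 3 h and 54 at 30 h. These are bulk RNA values, in which fewer cells of a type and less RNA per cell cannot be told apart.

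The pace of the Gata2 fall can be read from the steps between neighbouring times. It lost 1.02 in the initial 3 h, a further 0.44 from 3 to 7 h, 0.81 from 7 to 14 h, 0.80 from 14 to 21 h and 1.03 from 21 to 30 h. The largest adjusted p among these steps in limma was 0.000123, from 3 to 7 h. That step and the next kept their direction but missed the threshold where arrays were scaled to the hybridisation controls spiked into each array (-0.59, adjusted p = 0.0976, and -0.53, adjusted p = 0.0576). This scaling raised the SD of Gata2 at every time, to 0.25 at 0 h for example, and moved the median of all genes by -0.22 to 0.28 depending on the pair of times, and changes elsewhere in the text are relative to the middle of all genes on the deposited scale.

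The second probe set of Gata2 gave the same order of times. Its means were 10.96, 9.20, 8.84, 7.71, 7.04 and 6.19 from 0 to 30 h. It fell further than the brighter one at 3 h, with a change of -1.75 (SE 0.083) against -1.02, and by 30 h with -4.76 against -4.10. From 3 h to 30 h both moved by much the same, -3.01 and -3.08. Within each array, the dimmer minus the brighter had moved by -0.73 ± 0.089 (SD, n = 3) at 3 h relative to 0 h and by -0.66 ± 0.069 at 30 h, with -0.66 ± 0.0070 at 7 h, -0.98 ± 0.22 at 14 h and -0.85 ± 0.21 at 21 h between them. The gap was thus present at 3 h. Its mean was widest at 14 h, when the arrays did not overlap those at 7 h but did overlap those at 3 h and at 21 h. In an exact two-sided permutation test of 3 arrays against 3 the p against 0 h was 0.1, the smallest that test allows, and arrays at 0 h did not overlap those of any later time.

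Gata1 dipped, returned and then rose. Its 3 arrays read 10.15, 10.17 and 10.30 at 0 h and 9.70, 9.69 and 9.67 at 3 h. At 7 h they read 10.27, 10.26 and 10.24, and at 14 h 10.17, 10.32 and 10.31. Values of 11.02, 10.86 and 10.61 followed at 21 h, and 11.10, 11.06 and 11.08 at 30 h. The 3 h arrays lay below all others, those at 0, 7 and 14 h overlapped, and those at 21 and 30 h lay above them without overlapping each other. The arrays at 21 h were the most spread (SD 0.21, n = 3), against 0.018 at 3 h.

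The change of Gata1 from 0 h was -0.52 at 3 h (SE 0.081, limma adjusted p = 0.000213), then 0.62 by 21 h (adjusted p = 5.57e-06) and finally 0.87 by 30 h (adjusted p = 7.73e-08), or 1.83-fold higher. At 7 h it was 0.05 (SE 0.081, adjusted p = 0.693), with 0.06 by 14 h (adjusted p = 0.593), neither beyond the spread. From its low point at 3 h the gene rose 2.62-fold by 30 h, a change of 1.39 (adjusted p = 2.93e-10). Its recovery from 3 to 7 h was 0.57 (adjusted p = 0.000166), and its later rise came from 14 to 21 h, at 0.56 (adjusted p = 7.68e-05). At 3 h 569 of 12720 genes had a lower change than Gata1, and at 30 h 1446 had a higher one.

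Some Gata1 steps rest on the scale or on single arrays. Scaled to the hybridisation controls, the dip at 3 h was -0.42 (limma adjusted p = 0.253), the recovery 0.42 (adjusted p = 0.383) and the step from 14 to 21 h 0.35 (adjusted p = 0.257), all in the same direction and none called. The step from 21 to 30 h was 0.25 with all arrays (adjusted p = 0.0228), 0.14 without replicate 3 of 21 h (adjusted p = 0.109), 0.24 without replicate 1 of 30 h (adjusted p = 0.0600) and 0.25 without replicate 3 of 30 h (adjusted p = 0.0549). Whether the Gata1 probe set reads the disrupted gene, the fused transgene or both was not given in the sources used here; its level therefore checks neither the genotype nor the dose of the fused protein. Gata1 has no further probe set to compare.

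Zfpm1, which encodes the GATA1 partner FOG1, rose from the earliest time. Its 3 arrays read 9.90, 9.79 and 10.10 at 0 h and 10.42, 10.55 and 10.37 at 3 h. They read 10.96, 10.94 and 10.89 at 7 h and 11.05, 11.26 and 11.32 at 14 h. At 21 h the values were 11.79, 11.57 and 11.54, and at 30 h 11.73, 11.66 and 11.82. Each time up to 21 h lay wholly above the one before, and the arrays at 21 and 30 h overlapped.

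The change of Zfpm1 from 0 h was 0.52 at 3 h (SE 0.092, limma adjusted p = 0.000650), then 0.999 by 7 h, 1.28 by 14 h, 1.70 by 21 h and finally 1.81 by 30 h (adjusted p = 4.29e-11), or 3.50-fold higher. The step from 3 to 7 h was 0.48 (adjusted p = 0.00189), from 7 to 14 h 0.28 (adjusted p = 0.0397) and from 14 to 21 h 0.43 (adjusted p = 0.00210). The step from 21 to 30 h was 0.10 (SE 0.092, adjusted p = 0.411) and did not exceed the spread. At 3 h 436 of 12720 genes had a higher change than Zfpm1, at 7 h 206 and at 30 h 375. Scaled to the hybridisation controls, the steps from 3 to 7 h and from 14 to 21 h kept their direction and lost their calls (0.34 and 0.21, adjusted p = 0.561 and 0.551). The call from 7 to 14 h was kept on that scale but lost without any 1 of the arrays at 7 h, without replicate 2 or 3 of 14 h (0.25 and 0.23, adjusted p = 0.108 and 0.154), and without replicate 1 of 3 h or of 30 h (adjusted p = 0.0508 and 0.0502).

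The dimmer probe set of Zfpm1 also rose, with means of 6.29, 6.60, 7.02, 7.35, 7.45 and 7.76 in order of time. With every probe set tested, its change was 0.31 at 3 h (limma adjusted p = 0.0481), reaching 1.47 by 30 h (adjusted p = 3.82e-09), against 0.52 and 1.81 on the brighter one. The dimmer one moved by 0.09 from 14 to 21 h (adjusted p = 0.554) and by 0.32 from 21 to 30 h (adjusted p = 0.0281), so it showed no levelling at the end. Within arrays, the dimmer minus the brighter moved by -0.33 from 14 to 21 h without overlap (exact permutation p = 0.1, the smallest for 3 against 3) and by 0.21 from 21 to 30 h with overlap (exact p = 0.5).

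Between neighbouring times, limma called 3 of 3 genes from 3 to 7 h (14.9% of all genes), 2 of 3 from 7 to 14 h (22.3%), 3 of 3 from 14 to 21 h (33.2%) and 2 of 3 from 21 to 30 h (40.5%). Gata1 had the missing call from 7 to 14 h, at 0.01 (adjusted p = 0.953), and Zfpm1 from 21 to 30 h. Over all 15 pairs of times Gata2 was called in 15, Zfpm1 in 14 and Gata1 in 12. An F test over the course in limma called all 3, with 74.3% of all genes called. Ranked by F among the 12720 genes, Gata2 was number 24, Zfpm1 number 1216 and Gata1 number 1907.

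**Figure D2:**
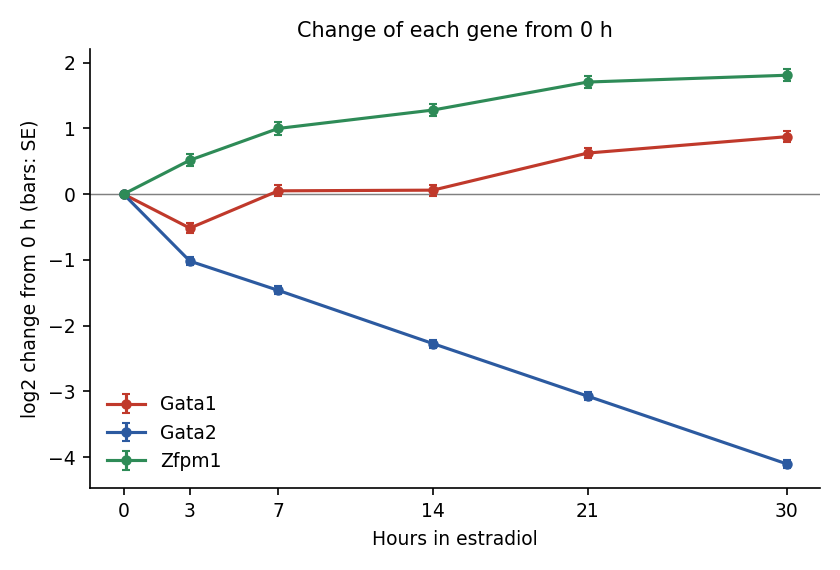
Log2 change from 0 h (vertical axis) of Gata1, Gata2 and Zfpm1 by hours in estradiol (horizontal axis); points are differences of means of 3 arrays and bars are standard errors from limma. Gata2 ends at -4.10, Gata1 at 0.87 and Zfpm1 at 1.81, and Gata1 alone crosses 0.

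The timing of the change was read as the share of the 30 h change that each gene had made. On the probe sets used, Zfpm1 had made 28.6% of its 30 h change by 3 h, 55.3% by 7 h, 70.7% by 14 h and 94.3% by 21 h. Gata2 had made 24.8%, 35.7%, 55.4% and 74.9% at those times. Gata1 stood at -59.2% at 3 h, being below its start, and at 5.77%, 6.92% and 71.5% afterwards. Leaving out each array in turn, the 14 h share ran from 67.7% to 75.1% for Zfpm1 and 3.79% to 12.3% for Gata1. On the second probe sets, added after the values were seen, Gata2 had made 36.8% of its change at 3 h and 82.3% at 21 h, and Zfpm1 21.3% and 78.4%. The order of Zfpm1 and Gata2 at 3 and 21 h therefore turns with the probe set, while Gata1, with 1 probe set, cannot be checked in this way. No test compares these shares.

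Because the genes sit on the same arrays, the difference between their log2 values within an array is not moved by a shift of that array as a whole, and its change from 0 h was followed; this was added after the values were seen. Gata1 relative to Gata2 had shifted by 0.50 ± 0.019 (SD, n = 3) at 3 h, then by 1.51 ± 0.025 (7 h), 2.33 ± 0.16 (14 h), 3.70 ± 0.18 (21 h) and 4.97 ± 0.030 (30 h). That is a 31.4-fold shift of the pair in 30 h, and it had begun at 3 h, when both genes were lower than at the start. Zfpm1 relative to Gata2 shifted by 5.91 over the same time. These ratios use the brighter probe sets of Gata2 and Zfpm1, and their sizes depend on that choice. The dimmer probe set of Gata2 changed by -1.75 at 3 h and -4.76 at 30 h, more than the brighter one. That of Zfpm1 changed by 0.31 and 1.47, less than the brighter one. Ratios between genes were not computed with the dimmer probe sets.

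On the brighter probe set of Zfpm1, its ratio to Gata1 behaved otherwise. It had shifted by 1.03 ± 0.090 (SD, n = 3) at 3 h, or 2.05-fold, and then stood at 0.95 ± 0.020 (7 h), 1.22 ± 0.067 (14 h), 1.08 ± 0.11 (21 h) and 0.93 ± 0.067 (30 h). The arrays at 7 h lay below those at 3 h, and those at 14 h (1.15 to 1.29) lay above those at 3 h (0.97 to 1.14), without overlap. In exact two-sided permutation tests of 3 arrays against 3, all of these ratios had p = 0.1 against 0 h at every time, the smallest the test allows, and no arrays overlapped those at 0 h. Between 14 and 21 h and between 21 and 30 h the arrays of the Zfpm1 to Gata1 ratio did overlap (exact p = 0.2 for each).

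**Figure D3:**
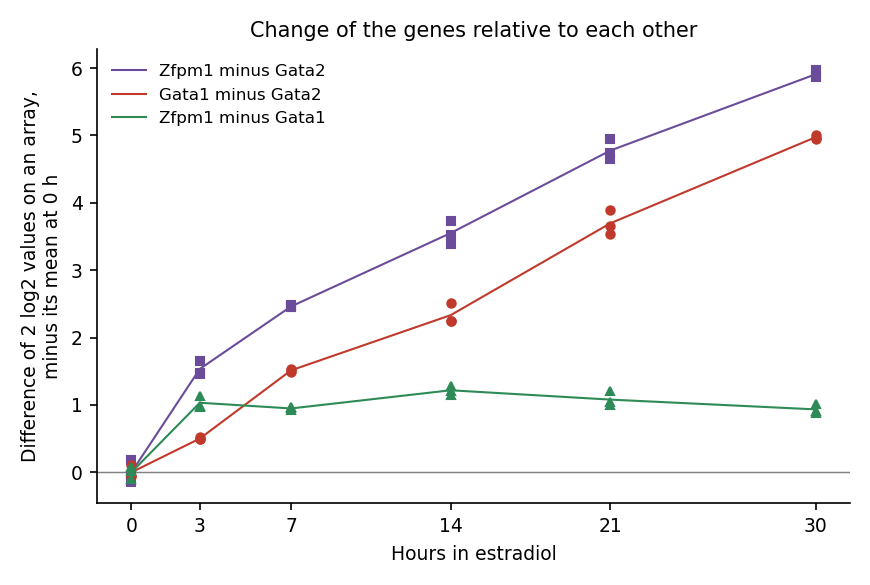
Change from 0 h of the log2 difference between members on the same array (vertical axis) by hours in estradiol (horizontal axis), with a point for each array. The brighter probe sets of Gata2 and Zfpm1 were used. Gata1 relative to Gata2 climbs to 4.97 and Zfpm1 relative to Gata2 to 5.91, while Zfpm1 relative to Gata1 is near 1.03 by 3 h and 0.93 at 30 h.

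Of the 5 other tested genes of the GATA and FOG families, Gata3 alone was called at 30 h, when 69.5% of all genes were. Gata3, known from T lymphocytes, averaged 5.40 ± 0.31 (SD, n = 3) before estradiol and 3.54 ± 0.30 after 30 h, a change of -1.86 (limma adjusted p = 3.95e-07). At 3 h its change was -0.52 (SE 0.20, adjusted p = 0.0678), short of a call with all arrays and called without replicate 2 of 21 h (adjusted p = 0.0359), and at 7 h -1.15 (adjusted p = 0.000317). Its late values lie close to the 40th percentile of the arrays, 3.28 to 3.35 at 30 h, below which a probe set was treated as low. Gata4, Gata5, Gata6 and Zfpm2 had means of 2.98 to 3.33 at 0 h and 3.20 to 3.33 at 30 h, near that percentile throughout. Gata6 was called once, at 14 h, with -0.33 (adjusted p = 0.0239), and not without replicate 2 of 0 h (-0.19, adjusted p = 0.146) or of 14 h (-0.23, adjusted p = 0.127). Trps1, a GATA-type repressor, was below the filter, with means of 2.26 to 2.77.

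The wider pathway was read from lists of 70 further genes, of which 61 were tested. At 3 h, 13 were higher and 18 lower in limma, 50.8% together against 25.9% of all genes; at 30 h, 21 were higher and 26 lower, 77% against 69.5%. The lists were drawn up with earlier results of these data known, and their counts are descriptions. Scaled to the hybridisation controls, 2 of these genes were higher and 5 lower at 3 h. Calls were fewer over all genes too, with 463 of 12720 higher and 285 lower at 3 h on that scale.

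**Figure D4:**
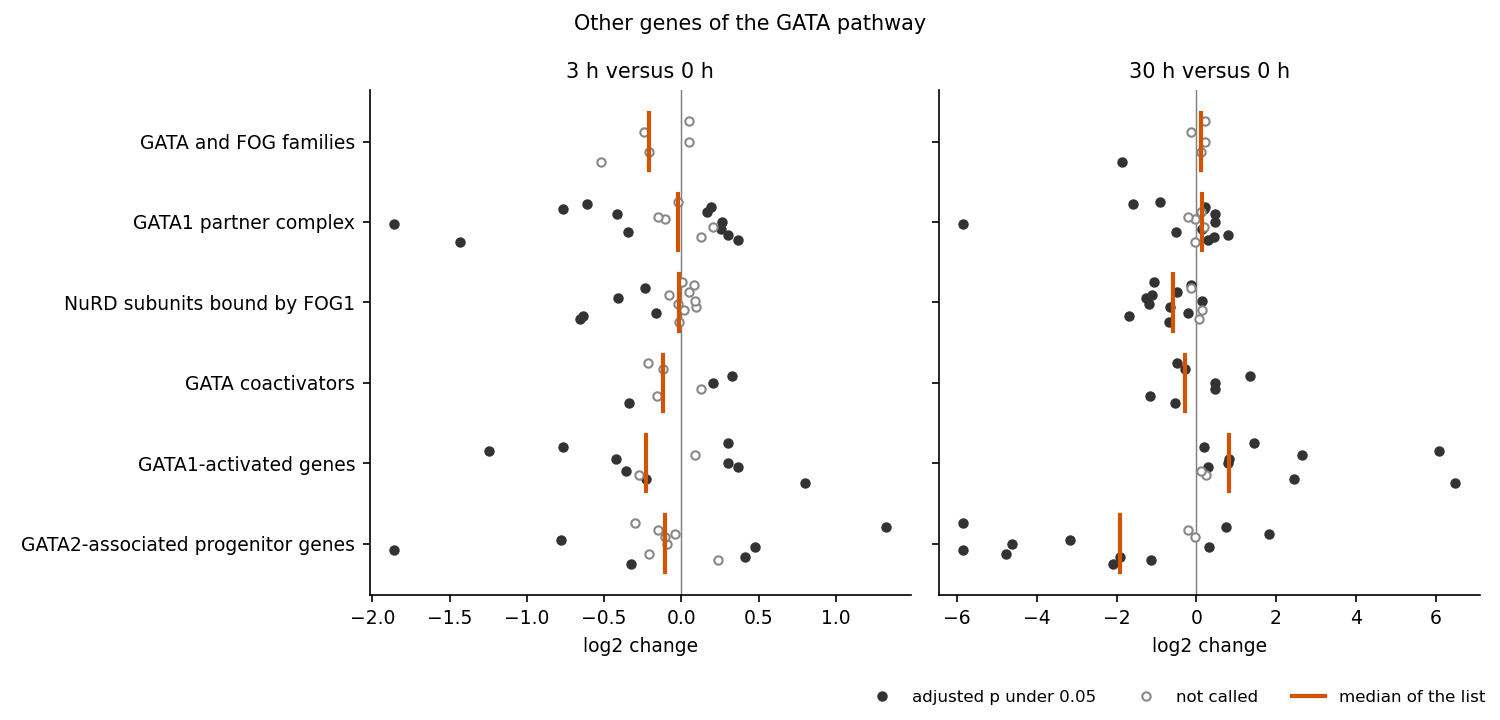
Log2 change (horizontal axes) of the tested genes of each pathway list, Gata1, Gata2 and Zfpm1 left out, at 3 h and at 30 h against 0 h; filled points are called by limma, open points are not, and bars are list medians. At 30 h the GATA1-activated genes have a median of 0.82, the NuRD subunits -0.57 and the GATA2-associated progenitor genes -1.90.

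Genes listed here under the GATA1 partner complex split early. Among 17 tested genes of this partner list, 6 were higher and 6 lower at 3 h (against 11.2% and 14.7% of all genes), with a median change of -0.02, the same as over all genes. Lyl1, a bHLH factor of progenitors, fell by 1.86 at 3 h (limma adjusted p = 2.88e-09) and by 5.85 at 30 h (adjusted p = 7.70e-17). Its close relative Tal1, which GATA1 needs at erythroid genes, averaged 11.86 ± 0.0060 (SD, n = 3) at the start and 11.09 ± 0.0096 after 3 h, a change of -0.76 (adjusted p = 6.25e-08). By 30 h Tal1 was back at 12.04, 0.19 above the start (adjusted p = 0.00586). Cbfa2t3, a corepressor of the same complex, went from 10.69 to 9.26 at 3 h, a change of -1.43 (adjusted p = 2.46e-08), and to 10.65 at 30 h (-0.04, adjusted p = 0.696). The mean of its probe sets was called lower at 30 h (-0.22, adjusted p = 0.0183). Tal1, like Gata1, was lower at 3 h and higher at 30 h. At 30 h 8 of the list were higher and 4 lower, shares near those of all genes (36.6% and 33%), with a median of 0.15 against 0.09 over all genes. The lower ones besides Lyl1 were Tcf3, a partner of Tal1 and Lyl1, which fell by 1.58, Tcf4, of the same family, which fell by 0.92, and Ldb1, the bridging protein of the complex, which fell by 0.50. Klf1 rose by 0.80. Scaled to the hybridisation controls, 0 of the list were higher and 3 lower at 3 h, and 5 and 3 at 30 h. Over all 12720 genes that scale called 463 higher and 285 lower at 3 h, and 4999 and 2585 at 30 h. On it Ldb1 (-0.30) and Tal1 (0.39) were no longer called at 30 h (limma adjusted p = 0.180 and 0.0742).

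Subunits of NuRD, the complex FOG1 recruits, were mostly lower at the end. Of 14 tested, 10 were lower and 1 (Mbd2, at 0.15) was higher at 30 h in limma, against 33% of all genes lower and 36.6% higher, and the list median was -0.57. Scaled to the hybridisation controls, 7 were lower and 0 higher (2585 and 4999 of all 12720 genes), and the list median was -0.37. Mbd2 was also not called without replicate 3 of 0 h or of 30 h (adjusted p = 0.0994 and 0.0646). Chd4, the ATPase of the complex, fell by 1.68, Mbd3 by 1.26 and the deacetylase Hdac2 by 1.19. Mta1 fell by 1.12 on the probe set used, but its other probe set was called the other way, at 0.39. At 3 h 5 were lower and 0 higher, against 14.7% and 11.2% of all genes. The largest were Chd3 at -0.66 (adjusted p = 0.00174), Chd4 at -0.64 (adjusted p = 0.00778) and Mbd3 at -0.41 (adjusted p = 0.0246), with Mta3 at -0.23 and Gatad2a at -0.16 beside them. That count was 2 or 3 without replicate 1 or 2 of 0 h or any 1 array at 3 h. It was 0 when arrays were scaled to the hybridisation controls, where 285 of all 12720 genes were lower. As FOG1 mRNA rose, then, several mRNAs for subunits of its partner complex fell. Of 7 coactivators, 3 were higher and 4 lower at 30 h, against 36.6% and 33% of all genes. The acetyltransferase genes Kat2b, Crebbp and Ep300 were higher, by 1.35, 0.47 and 0.48, and Brd3, a bromodomain protein, and Med1, a Mediator subunit, were lower, at -1.15 and -0.29. The others were Brd2, at -0.52, and Smarca4, at -0.49. On the hybridisation control scale 1 of the 4, Brd3, was called, with 2585 of all 12720 genes lower. Med1, Brd2 and Smarca4 were not called on it (limma adjusted p = 0.714, 0.163 and 0.191). The probe sets of Kat2b ran from 0.02 to 1.35 at 30 h, with 2 of 3 called. At 3 h Brd2 (-0.34), Kat2b (0.33) and Ep300 (0.20) were called, and 0 of them on the hybridisation control scale. That scale called 463 of all 12720 genes higher and 285 lower at 3 h. Kat2b was not called when its probe sets were averaged (0.20, adjusted p = 0.214) or without probe sets of _x_at or _s_at name (0.08, adjusted p = 0.745). Brd2 was also lost without replicate 1 of 0 h or replicate 3 of 3 h (adjusted p = 0.0926 and 0.0578), and Ep300 without 12 of the 18 arrays, each left out in turn.

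Genes that GATA1 is known to activate moved both ways at 3 h and upward by 30 h. Of 11 tested, 4 were higher and 5 lower at 3 h (against 11.2% and 14.7% of all genes). Scaled to the hybridisation controls, 1 was higher and 2 lower, against 463 and 285 of all 12720 genes. At 30 h 9 were higher and 0 lower (against 36.6% and 33%), with a median of 0.82. The higher ones at 3 h were Alas2, Klf1, Gfi1b and Uros, and the lower ones Slc4a1, Tal1, Nfe2, Epor and Bcl2l1. Alas2 changed by 0.80 at 3 h (limma adjusted p = 2.94e-06) and by 6.49 at 30 h. Slc4a1, which encodes the anion exchanger band 3, fell by 1.25 at 3 h (adjusted p = 3.12e-08) and stood 6.08 above the start at 30 h. Slc25a37, the mitochondrial iron carrier mitoferrin, rose by 2.66 and Bcl2l1, which encodes the survival protein BCL-XL, by 2.45 at 30 h. Slc4a1, Tal1, Nfe2 and Bcl2l1 shared with Gata1 a lower value at 3 h and a higher one at 30 h.

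Progenitor genes linked to GATA2 were mostly lower at 30 h, and few were at 3 h. Of 13 tested, 3 were higher and 3 lower at 3 h (against 11.2% and 14.7% of all genes). Scaled to the hybridisation controls, 1 was higher and 2 lower, against 463 and 285 of all 12720 genes. At 30 h 3 were higher and 8 lower (against 36.6% and 33%), with a median of -1.90. Kit, the receptor for stem cell factor, changed by -0.21 at 3 h (SE 0.13, limma adjusted p = 0.253), though averaging its probe sets gave -0.40 and a call (adjusted p = 0.00183), and by -4.77 at 30 h. Myb, a transcription factor of dividing progenitors, changed by -0.09 at 3 h (SE 0.069, adjusted p = 0.374) and by -4.62 at 30 h. Vim, the intermediate filament vimentin, fell by 5.84 by 30 h. Myc was already lower at 3 h, by 0.78 (adjusted p = 0.000965), as were Lyl1 and Etv6, and Tac2, a tachykinin gene, was higher by 1.33 (adjusted p = 1.26e-06), as were Hhex and Meis1 by less. Tac2, Samd14 and Meis1 were the ones higher at 30 h, by 0.76, 1.83 and 0.33; the call of Meis1 (limma adjusted p = 0.0477) was lost without most single arrays (adjusted p up to 0.200, without replicate 3 of 30 h). The difference in timing between Gata2 and these genes was not itself tested.

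Markers of other blood lineages were read for the same arrays. The mean log2 value of 9 mast cell and basophil genes, a lineage that also uses GATA2, was 4.41 to 4.59 at 0 h, 3.95 to 4.06 at 3 h, 3.48 to 3.50 at 7 h and 3.09 to 3.21 at 30 h. At 0 h 7 of the 9 lay above the 40th percentile on all arrays and at 30 h 3 of 9. Cpa3, mast cell carboxypeptidase, went from 8.08 to 2.66 and Ms4a2, a subunit of the IgE receptor, from 5.57 to 2.14, while Fcer1a, its defining subunit, was at or below 1.70 on average throughout. Over all genes tested, 33% were called lower and 36.6% higher at 30 h. Of the 7 mast cell and basophil genes tested, 4 were lower at 30 h (Cpa3, Ms4a2, Hdc and Gzmb). Tpsb2 was higher by 0.45 (limma adjusted p = 0.0108), and Mcpt8 (0.04) and Cma1 (0.14) were not called. Hdc was higher at 7 h, by 0.59. The part of these markers in the fall of Gata2 was not tested. The 8 megakaryocyte genes with a probe set averaged 4.35 to 4.46 at 0 h and 4.74 to 4.82 at 30 h. They did not move as a group: of 5 tested, Tubb1, a platelet tubulin, rose by 8.18 and Gp9 by 0.66, Pf4 fell by 2.34, Gp5 fell by 3.99, Itga2b was not called (-0.20), and the median change was -0.20. Their part in the rise of Gata1 and Zfpm1 was not tested. Granulocyte and macrophage genes averaged 3.25 to 3.43 at 0 h and 3.15 to 3.42 at 30 h, and lymphoid genes 3.09 to 3.27 and 3.24 to 3.39. Erythroid markers averaged 7.31 to 7.40 at 0 h and 9.37 to 9.49 at 30 h over the 7 of 10 with a probe set. That mean leaned on Alas2 and Slc4a1, which rose by 6.49 and 6.08. Klf1 rose by 0.80 and Tfrc by 0.35, while Epor (0.12) and Epb42 (0.23) were not called. Over the 6 tested the median change was 0.58, and Hba-a1 was below the filter.

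The genes whose course was nearest to each member were found by the root mean square difference over the 5 changes from 0 h, among genes with a name. For Gata2 the nearest was Spn, which encodes the leukocyte surface protein CD43, at 0.13, followed by Rcbtb2 at 0.28, Bsn at 0.30, Coro1a at 0.32 and Ydjc at 0.32. For it, 3 genes lay under 0.3, a measure that grows with the size of the changes, so these counts are not set against each other. For Zfpm1 the nearest were Akap8l at 0.030, Pkd2l2 at 0.075, Tatdn3 at 0.099, Ilvbl at 0.12 and Tmod3, a tropomodulin of the actin skeleton, at 0.12, and 130 genes lay under 0.3. For Gata1 they were Clcn6 at 0.076, Stk38 at 0.084, Zfp335 at 0.085, Irgq at 0.088 and Smg6 at 0.094, and 566 genes lay under 0.3. Ranked by correlation over the 18 arrays instead, 1 of the 5 nearest remained for Gata2 (Spn), 2 for Gata1 (Clcn6 and Irgq) and 0 for Zfpm1. All of these values come from the same arrays and share their 0 h samples.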

How the data were processed

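Total RNA of G1E-ER4 cells was measured on 18 Affymetrix arrays, biotin-labelled per the labels' protocols. The authors deposited log2 values for 45101 probe sets on each array. How probes were summarised, corrected and scaled was not given in the sources used here; array medians were nearly equal, so changes are relative to the middle of all genes, and folds of dim genes may be too small. Platform annotation gave 34958 probe sets 1 gene, 932 several and 9211 none; only the first kind was used, and 34754 of their gene identifiers were found in RefSeq, with 0 symbols changed.

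Per gene, the probe set with the highest mean was kept. Tested genes exceeded the 40th percentile of the array's probe sets on 3 arrays or more. All arrays were fitted together in limma 3.58.1 (R 4.3.3), with a mean per time and 12 residual degrees of freedom. Tests were two-sided, adjusted by Benjamini-Hochberg over 12720 genes per comparison and called at an adjusted p under 0.05. The code was tested on simulated data. The number of arrays, 3 per time, limits the precision.

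Named genes are Gata1, Gata2 and Zfpm1, other family members, in each other list the called genes with the 4 largest changes at 30 h and the 3 largest at 3 h, and the 5 genes most like each member. Gata1, Gata2, Zfpm1 and all lists were chosen with earlier results of these data known. Genes outside this rule (those that spell out a count of 5 or fewer, marker genes, and named genes at a time other than the rule's) were picked after their values were seen. Alternatives covered scaling, filter, probe set choice, arrays in the fit, variance model, replicate block and leaving out each array. Deviations of same-numbered arrays from their time means correlated at -0.17 to 0.19 (mean r 0.012 over 45 pairs). The labels do not say whether equal numbers pair arrays. These values cannot settle it, and the main fit used no pairing.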

Additional observations from a re-analysis of the deposited data

How the results depend on the processing

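The comparisons of Gata1, Gata2 and Zfpm1 with 0 h kept their direction and their side of the threshold under quantile normalization, equal medians, no filter, a 60th-percentile filter, other probe set choices, other variance models, the replicate block and every left-out array, and Gata1 at 3 h lost its call with hybridisation control scaling. Gata1 has no second probe set, so that setting was not run for it.

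With hybridisation control scaling Gata1 changed by -0.42 from 0 to 3 h, 0.42 from 3 to 7 h, 0.35 from 14 to 21 h and 0.44 from 21 to 30 h (not called). Gata2 changed by -0.59 from 3 to 7 h and -0.53 from 7 to 14 h, and Zfpm1 by 0.34 from 3 to 7 h and 0.21 from 14 to 21 h, again not called. Other pathway genes were then 2 higher and 5 lower at 3 h, and 5 higher and 10 lower at 7 h. They were 11 lower at 14 h, and 9 higher and 19 lower at 21 h. Of all 12720 genes, 463 were higher and 285 lower at 3 h on this scale, and 548 and 653 at 7 h. At 14 h 812 of all genes were lower, and at 21 h 2402 were higher and 2327 lower. The share of the 30 h change became -39.0%, 0.24% and 26.9% for Gata1 at 3, 7 and 14 h, 23.6%, 38.8% and 78.5% for Gata2 at 3, 7 and 21 h, and 47.3% and 85.4% for Zfpm1 at 7 and 21 h. List medians turned sign: 0.18 for the families at 14 h, 0.073, -0.041 and 0.19 for the partner list at 3, 7 and 14 h, 0.079 and 0.047 for NuRD at 3 and 14 h, 0.063 for coactivators at 14 h, 0.062 for erythroid and 0.054 for mast cell markers at 3 h, and 0.020 and 0.0071 for megakaryocyte markers at 3 and 30 h. Cbfa2t3 at 30 h, not called, turned to 0.16 and Myb at 3 h to 0.0064 (0.041 without _x_at and _s_at probe sets). This scale moves all genes of an array together, by construction; the cause of the array differences it carries was not tested.

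The step of Gata1 from 21 to 30 h was not called with equal medians (0.23, limma adjusted p = 0.0508) or where the fit held the 6 arrays of those times (0.25, limma adjusted p = 0.137). The step of Zfpm1 from 7 to 14 h was not called after quantile normalization (0.26), and at 0.28 neither without the filter nor with only those 6 arrays. With the replicate block it was 0.28 (limma adjusted p = 0.0581), and the block changed no other call of the 3 genes. Whether replicate numbers pair these arrays is not stated in the labels. On the second probe set Zfpm1 changed by 0.093 from 14 to 21 h, not called, and by 0.32 from 21 to 30 h, called, as was the mean of its probe sets at 0.21. Second probe sets, added after seeing the data, put the share of Gata2 at 36.8%, 44.5%, 68.2% and 82.3% at 3, 7, 14 and 21 h, and that of Zfpm1 at 21.3%, 49.6% and 78.4% at 3, 7 and 21 h. The cause of these differences was not tested.

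Leaving out each array in turn, the change of Gata1 from 7 to 14 h ran from -0.017 to 0.057, its sign turning without replicate 2 (-0.017) or 3 (-0.0094) of 14 h. That from 21 to 30 h ran from 0.14 to 0.35, and that of Zfpm1 from 7 to 14 h from 0.23 to 0.36. The share of Gata1 ran from -64.2% to -51.2% at 3 h, 2.82% to 10.5% at 7 h, 3.79% to 12.3% at 14 h and 60.5% to 84.1% at 21 h, and that of Zfpm1 from 53.5% to 57.2% at 7 h. Cbfa2t3 at 30 h ran from -0.11 to 0.0016, turning without replicate 1 of 0 h.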

Other observations

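Against 0 h, limma called 16 of the 61 other genes of the GATA pathway upward and 16 downward at 7 h. Together these were 52.5%, against 31.6% of all genes. The counts were 14 and 27 at 14 h (67.2% against 44.9%) and 18 and 29 at 21 h (77% against 59.9%). Some courses were not one-way, and they were picked after their values were seen. Tac2, a tachykinin gene, had means of 3.85, 5.18, 6.29, 6.28, 5.74 and 4.61 from 0 to 30 h, highest in the middle of the course. Slc4a1, the gene of band 3, had means of 6.34, 5.09, 6.48, 9.40, 11.83 and 12.42, lowest at 3 h like Gata1. Hhex, a homeobox factor of progenitors, stood at 10.91, 11.32 and 11.16 until 7 h and at 9.85, 8.65 and 9.01 afterwards. Gfi1b, a repressor of red cell and megakaryocyte precursors, was highest at 7 h, with means of 10.23 at 0 h, 10.87 at 14 h and 10.52 at 30 h around that peak.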
